A study of Homo sapiens with 12 samples.

Results

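Described here are 8 cardiac transcription factors in differentiating human cells. They are *HAND1* and *HAND2*, *IRX4* and *HEY2*, which are used as marks of ventricular identity, and *NKX2-5*, *GATA4*, *MEF2C* and *TBX20*, which belong to the core cardiac program. The 8 genes were taken by their symbols from a table of 61806 genes. They were selected on these data, because *HAND1* and *IRX4* nearly disappeared from one Day 12 library, so the levels of these genes in that library are a description and carry no test. All 8 passed the edgeR filter on low counts.

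The cells were H1, an established human embryonic stem cell line of wild-type genotype, and all groups had been induced toward mesendoderm. The NP-IWP2 group was not passaged and received IWP2, which blocks secretion of WNT ligands and is a common inducer of cardiomyocytes. The Pass-ctrl group was dissociated and replated on Day 2 without IWP2, and the Pass-IWP2 group was replated on Day 2 and given IWP2 as well. RNA was taken for sequencing on Day 12 and on Day 16, with 2 libraries in each of the 6 groups. The labels number the libraries 1 and 2 in NP-IWP2, 3 and 4 in Pass-ctrl, and 5 and 6 in Pass-IWP2 on each day. All libraries came from 1 cell line, and nothing says whether the 2 libraries of a group were separate cultures, so p-values measure only the spread between these libraries, which may be technical.

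These factors bind DNA and act in combination. GATA4, NKX2-5, TBX20 and MEF2C bind enhancers of contractile genes together and support one another's expression in the cardiac lineage. The basic helix-loop-helix factors HAND1 and HAND2 shape the ventricles, and in the mouse heart HAND1 is associated with the left ventricle and HAND2 with the right. IRX4 is a homeobox factor restricted to ventricular myocardium. HEY2 is a transcriptional repressor that acts downstream of Notch and is found in compact ventricular muscle.

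The promoters of the gene pair that was lost together, *HAND1* and *IRX4*, are printed here with that of *HAND2*, which was at its highest in the same library. Each is the 250 bases before the RefSeq transcription start (GRCh38.p14, minus strand, read 5′ to 3′), and capitals mark the letters GATAA or their reverse complement TTATC, the core of sites bound by GATA factors. *HAND1* is at chr5:154478228-154478477, *HAND2* at chr4:173530230-173530479 and *IRX4* at chr5:1887180-1887429.
HAND1: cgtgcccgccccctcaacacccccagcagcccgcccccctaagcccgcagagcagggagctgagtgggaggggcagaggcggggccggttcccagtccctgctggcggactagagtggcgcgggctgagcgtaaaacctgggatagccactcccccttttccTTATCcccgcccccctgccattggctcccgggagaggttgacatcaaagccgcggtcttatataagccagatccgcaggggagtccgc
HAND2: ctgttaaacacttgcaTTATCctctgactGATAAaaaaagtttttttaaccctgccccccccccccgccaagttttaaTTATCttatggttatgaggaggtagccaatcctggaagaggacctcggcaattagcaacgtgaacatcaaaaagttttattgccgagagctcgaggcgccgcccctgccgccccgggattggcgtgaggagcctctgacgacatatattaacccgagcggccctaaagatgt
IRX4: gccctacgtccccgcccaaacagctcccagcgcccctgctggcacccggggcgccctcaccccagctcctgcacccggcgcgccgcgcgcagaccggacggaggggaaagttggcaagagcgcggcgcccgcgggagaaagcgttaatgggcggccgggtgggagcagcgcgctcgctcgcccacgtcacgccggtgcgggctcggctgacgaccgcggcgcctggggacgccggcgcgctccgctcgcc
The window of *HAND1* held 1 match and that of *HAND2* held 3, while *IRX4* held 0, and 20.5% of 34786 RefSeq promoters of this length held at least 1 match on either strand. The sequences also differed in base composition, with 67.2% G and C in *HAND1*, 49.6% in *HAND2* and 77.6% in *IRX4*, against a median of 58.0%. The *IRX4* window held 40 CG dinucleotides, against 16 in *HAND1*, 13 in *HAND2* and a median of 11. A match is only a string of letters in this window and says nothing of binding. RefSeq entries were matched for 6 of the 8 genes, not for *NKX2-5* and *GATA4*.

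Library totals ran from 14885589 to 19176239 counted reads (median 16452289). The cardiomyocyte gene *TNNT2*, cardiac troponin T, lay between 74.8 and 145 FPKM (counts scaled to exon length and to the library's total) in all 12 libraries, whereas 6 pluripotency genes summed to 6.91 to 38.3 FPKM. *LIN28A* and *TDGF1* made up most of that sum, while *POU5F1*, *NANOG* and *SOX2* reached at most 0.05, 0.02 and 0.77 FPKM. The static libraries also held transcripts of other lineages. A list of 12 hepatic and endodermal genes summed to 450 to 641 FPKM in NP-IWP2 on Day 12 and 761 to 925 on Day 16, against 5.79 to 20.1 in the passaged libraries, where 1 to 6 of the 12 genes were listed at 0 in both libraries of a group. A list of 8 fibroblast genes summed to 702 to 722 and 1204 to 1244 FPKM in NP-IWP2 on the 2 days. It summed to 23.7 to 35.8 in the passaged libraries, except for 685 in Day 12 Pass-IWP2 library 5, where 2 collagens made up most of the sum. A list of 11 epicardial genes summed to 251 to 279 FPKM in NP-IWP2 and 104 to 189 in the passaged libraries, except for 282 in the same library. Most of the other passaged sums came from *KRT8*, *KRT19* and *TJP1*. In those libraries *TBX18*, *WT1* and *TCF21* were at most 0.08 FPKM, against at least 2.36 in NP-IWP2. *SEMA3D* was higher in them on Day 12 (7.12 to 10.9 against 5.72 and 6.29). For the 10 list genes tested with all 12 libraries, the median Day 16 log2 fold change against NP-IWP2 was -4.89 in Pass-ctrl and -5.38 in Pass-IWP2. Library 5 of Day 12 Pass-IWP2 stood apart from its partner in many genes, though not in the hepatic list (8.30 and 8.36 FPKM). Every test of the 8 members below is given with all 12 libraries and again without library 5. In bulk RNA, fewer cells of a type and less RNA per cell cannot be told apart.

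*HAND1* was the most abundant of the 8 factors in static culture. Its level was 159 and 142 FPKM in the Day 12 NP-IWP2 libraries, 104 and 81.3 in Pass-ctrl, and 0.26 and 109.8 in Pass-IWP2. On Day 16 it was 136 and 123 FPKM in NP-IWP2, 90.5 and 91.9 in Pass-ctrl, and 81.9 and 72.35 in Pass-IWP2. Every passaged library lay below every static library of its day, and the single loss in Day 12 Pass-IWP2 library 5 had no counterpart on Day 16.

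*HAND2* was less abundant than *HAND1* in every library but one. The Day 12 values were 56.4 and 61.6 FPKM in NP-IWP2, 34.3 and 26.8 in Pass-ctrl, and 88.6 and 38.6 in Pass-IWP2. On Day 16 they were 66.2 and 58.6, 50.7 and 46.05, and 41.3 and 35.9 FPKM in the same order of groups. The exception was library 5 of Day 12 Pass-IWP2, which held the highest *HAND2* of all 12 libraries. The ratio of *HAND1* to *HAND2* in FPKM was 1.78 to 3.04 in the other 11 libraries and 0.0029 in that library.

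*IRX4* was higher in Pass-ctrl than in NP-IWP2 on both days, without overlap, and was low in both Pass-IWP2 libraries of Day 16. It stood at 20.45 and 20.15 FPKM in Day 12 NP-IWP2, 61.5 and 43.0 in Pass-ctrl, and 0.04 and 68.4 in Pass-IWP2. The Day 16 levels were 33.9 and 37.8 FPKM in NP-IWP2, 51.3 and 46.5 in Pass-ctrl, and 31.5 and 21.4 in Pass-IWP2. The highest of all libraries, at 68.4 FPKM, was therefore the partner of the library in which *IRX4* was lost.

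*HEY2* had the lowest median of the 8 genes, 9.39 FPKM over the 12 libraries. Its Day 12 levels were 5.50 and 6.07 FPKM in NP-IWP2, 8.77 and 5.80 in Pass-ctrl, and 7.73 and 10.01 in Pass-IWP2, with Pass-ctrl overlapping both other groups. By Day 16 it was 12.0 and 15.3 FPKM in NP-IWP2, 19.8 and 18.6 in Pass-ctrl, and 10.3 and 4.6 in Pass-IWP2. The Pass-IWP2 libraries were the lowest on Day 16, and library 6 held the lowest value of all 12.

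*NKX2-5*, a homeobox factor expressed from the earliest cardiac progenitors on, was 100.4 and 91.8 FPKM in Day 12 NP-IWP2, 170.3 and 158 in Pass-ctrl, and 55.3 and 199.4 in Pass-IWP2. On Day 16 it was 88.7 and 92.6 FPKM in NP-IWP2, 117 and 119 in Pass-ctrl, and 117 and 115 in Pass-IWP2. Library 5 held the lowest *NKX2-5* level of the series and library 6 of the same group the highest.

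*GATA4*, a zinc finger factor, varied least, from 68.7 to 113 FPKM. It was 101 and 108 FPKM in Day 12 NP-IWP2, 88.0 and 84.4 in Pass-ctrl, and 113 and 86.1 in Pass-IWP2. The Day 16 levels were 84.7 and 93.4 FPKM in NP-IWP2, 68.7 and 69.3 in Pass-ctrl, and 83.2 and 83.25 in Pass-IWP2. Its highest FPKM was in library 5 of Day 12 Pass-IWP2. With TMM scaling that library had 93.0 FPKM, below the 102.4 of Day 16 Pass-IWP2 library 6.

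*MEF2C*, a MADS-box factor that activates muscle genes, was 21.3 and 20.8 FPKM in Day 12 NP-IWP2, 29.5 and 27.2 in Pass-ctrl, and 20.1 and 31.1 in Pass-IWP2. On Day 16 it was lower in all groups, at 13.55 and 15.2 FPKM in NP-IWP2, 11.45 and 11.03 in Pass-ctrl, and 10.37 and 10.39 in Pass-IWP2. No Day 16 library reached the level of any Day 12 library.

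*TBX20*, a T-box factor, did not keep one order of groups on both days. It was 131 and 119.7 FPKM in Day 12 NP-IWP2, 104 and 132 in Pass-ctrl, and 86.0 and 95.8 in Pass-IWP2, and on Day 16 102 and 113, 106 and 111, and 105 and 74.3 FPKM. On Day 12 both Pass-IWP2 libraries lay below the other 4, while NP-IWP2 and Pass-ctrl overlapped. On Day 16 NP-IWP2 overlapped both passaged groups, and the Pass-IWP2 libraries were the furthest apart.

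**Figure D1:**
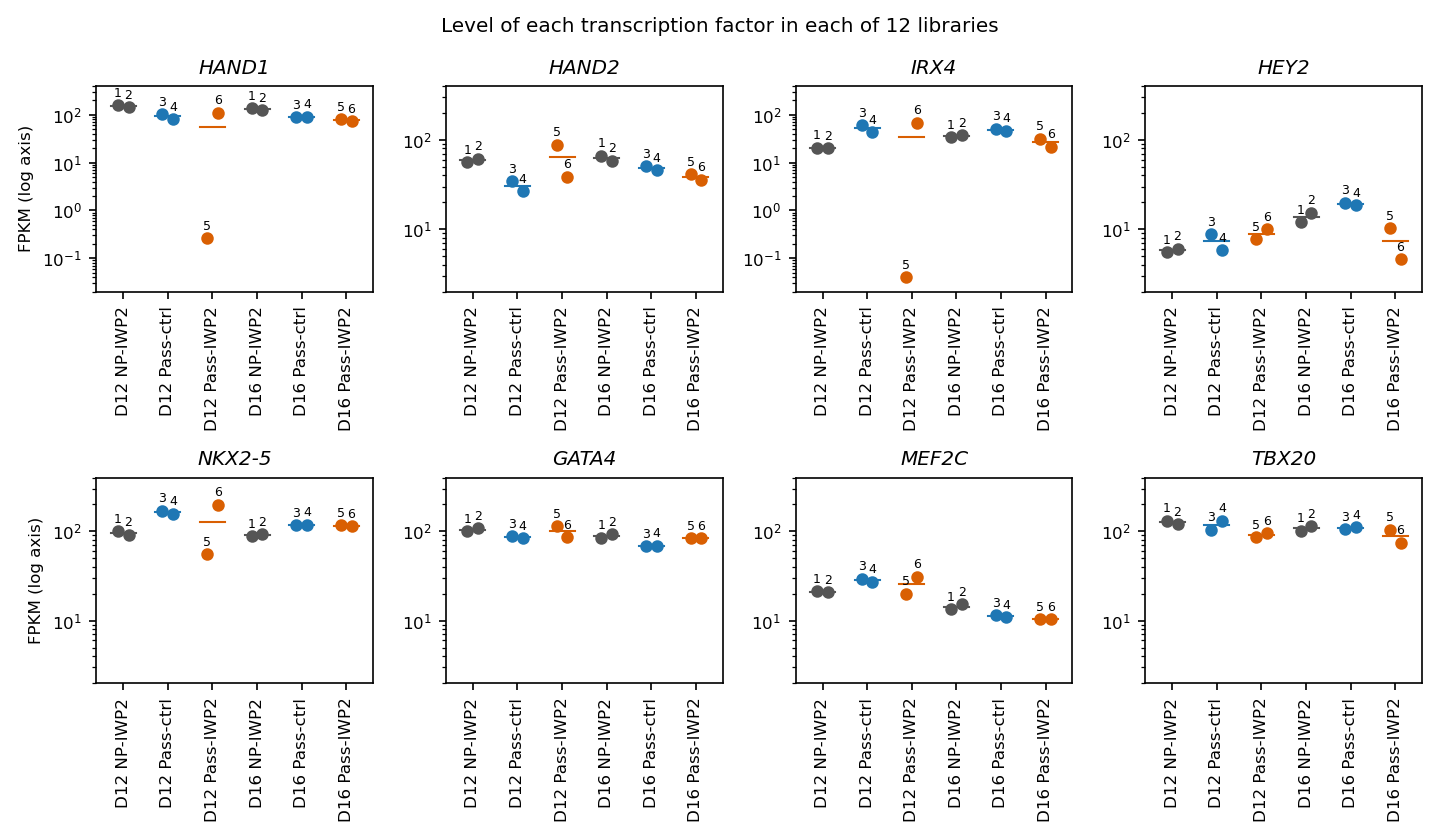
Level of the 8 factors in FPKM on a log axis, one point per library with its number, by day (D12, D16) and group; short lines are group means, and the axis of *HAND1* and *IRX4* reaches lower than that of the other genes. The 11 other libraries hold at least 72.35 FPKM of *HAND1* and 20.15 FPKM of *IRX4*, while library 5 of Day 12 Pass-IWP2 holds 0.26 and 0.04 FPKM.

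The first question was whether passaging alone, without IWP2, gave other levels of these factors than static culture with IWP2. On Day 12, *IRX4*, *NKX2-5* and *MEF2C* had higher FPKM in both Pass-ctrl libraries than in both NP-IWP2 libraries. *HAND1*, *HAND2* and *GATA4* had lower FPKM in both, and *HEY2* and *TBX20* overlapped. How many of all genes were separated in this way was not counted. With all 12 libraries in the model, 0 of the 8 genes passed an adjusted p of 0.05 in edgeR's quasi-likelihood test and 2 had an unadjusted p under 0.05 (DESeq2 called 1), while 4.01% of 19505 genes tested passed. Without Day 12 Pass-IWP2 library 5, which takes no part in this comparison but enters the estimate of spread, 5 of 8 passed, against 21.9% of 20518 genes. *IRX4* was higher by 1.45 ± 0.17 (log2 fold change ± SE, edgeR adjusted p = 4.34e-05), *NKX2-5* by 0.85 ± 0.10 (edgeR adjusted p = 5.77e-05) and *MEF2C* by 0.51 ± 0.10 (edgeR adjusted p = 0.00224). In the same fit *HAND2* fell by 0.86 ± 0.14 (edgeR adjusted p = 0.000495) and *HAND1* fell by 0.62 ± 0.13 (edgeR adjusted p = 0.0047). The fold changes themselves were almost the same with all 12 libraries, but the SE was 1.31 for *HAND1* and 1.40 for *IRX4*. *HEY2*, *GATA4* and *TBX20* were at 0.42, -0.19 and -0.01 on the log2 scale and did not pass.

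The spread in the 12-library fit was set largely by one group. The biological coefficient of variation that edgeR estimated for *HAND1* was 0.903 with library 5 and 0.104 without it, and for *IRX4* 0.994 and 0.123. For *GATA4* it was 0.119 and 0.0849. The trend over all genes moved as well, with a common value of 0.228 with the library and 0.115 without it. Library 5 was singled out by its low *HAND1* and *IRX4*. The p-values of these genes in fits without it are therefore post hoc.

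By Day 16 the Pass-ctrl cells had higher *IRX4*, *HEY2* and *NKX2-5* than the static cells, in both libraries of each. *HAND1*, *HAND2*, *GATA4* and *MEF2C* were lower in FPKM in both libraries of each, and *TBX20* overlapped. The share of all genes so separated was not counted. No member passed with 12 libraries, and 0 of 8 had an unadjusted p under 0.05 in edgeR or a call in DESeq2, while 15.3% of all genes passed. Without library 5, 3 of 8 passed, all higher, against 32.4% of all genes, so the share of members called was about that of all genes. *HEY2* was higher by 0.73 ± 0.25 (edgeR adjusted p = 0.040), *IRX4* by 0.68 ± 0.17 (edgeR adjusted p = 0.00669) and *NKX2-5* by 0.61 ± 0.10 (edgeR adjusted p = 0.000546). *HAND1* was at -0.28 ± 0.13 and did not pass (edgeR adjusted p = 0.128), although both passaged libraries were below both static libraries.

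Against the same static libraries, both Pass-IWP2 libraries of Day 16 had higher FPKM of *NKX2-5*. They had lower FPKM of *HAND1*, *HAND2*, *IRX4*, *HEY2*, *GATA4* and *MEF2C*, while *TBX20* overlapped. The share of all genes separated in this way was not counted. No member passed with all 12 libraries, none had an unadjusted p under 0.05 in edgeR or a call in DESeq2, and 17.1% of all genes passed. Without library 5, 3 of 8 passed against 34.8% of all genes. *NKX2-5* was higher by 0.63 ± 0.10 (edgeR adjusted p = 0.000392), *HAND1* fell by 0.48 ± 0.13 (edgeR adjusted p = 0.0137) and *HAND2* fell by 0.42 ± 0.14 (edgeR adjusted p = 0.027). *HEY2* was at -0.61 ± 0.26 and did not pass (edgeR adjusted p = 0.0839), nor did *IRX4* at -0.17 ± 0.17. For *GATA4* the sign depended on the scaling, 0.18 with TMM and -0.10 with total counts. The 2 comparisons on Day 16 share their NP-IWP2 libraries.

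The static libraries also held the hepatic, fibroblast and epicardial transcripts given above, and how far these set the differences from passaged cells was not tested. Relative to *TNNT2*, *HAND1* was 1.44 to 1.47 in Day 12 NP-IWP2 and 0.560 to 0.824 in Pass-ctrl, and on Day 16 it was 1.40 to 1.82, 0.854 to 1.17 and 0.810 to 0.855 in NP-IWP2, Pass-ctrl and Pass-IWP2. The same ratio for *IRX4* was 0.185 to 0.208 and 0.296 to 0.489 in Day 12 NP-IWP2 and Pass-ctrl. On Day 16 it was 0.430 to 0.454, 0.484 to 0.590 and 0.253 to 0.312 in the 3 groups. In Day 12 Pass-IWP2, library 6 had 0.924 for *HAND1* and 0.575 for *IRX4*, and library 5 had 0.0033 and 0.000508. The *NKX2-5* ratio was 0.907 to 0.946 in Day 12 NP-IWP2 and 1.09 to 1.36 in Pass-ctrl, without overlap. On Day 16 it was 1.05 to 1.19 in NP-IWP2 and 1.10 to 1.51 in the passaged libraries, with overlap. For *MEF2C*, called higher in Day 12 Pass-ctrl, the ratio was 0.192 to 0.214 in NP-IWP2 and 0.187 to 0.235 in Pass-ctrl, with overlap. These ratios depend on *TNNT2*, 1 of 12 listed cardiomyocyte genes. With all 12 libraries, edgeR called 6 higher and 1 lower in Day 16 Pass-ctrl against NP-IWP2, and 5 and 1 in Pass-IWP2. The shares of all genes were 15.3% and 17.1%. Without library 5 these were 10 and 1, then 11 and 1 (32.4% and 34.8%). *ACTN2* of this list was 78.9 and 53.0 FPKM in Day 16 NP-IWP2, 188 and 160 in Pass-ctrl, and 184 and 192 in Pass-IWP2. Ratios to it were not taken.

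Adding IWP2 after passaging was examined on Day 16. The 2 factors most closely tied to ventricular muscle, *IRX4* and *HEY2*, were lower in both Pass-IWP2 libraries than in both Pass-ctrl libraries. This separation in FPKM was not particular to them, since *HAND1*, *HAND2*, *MEF2C* and *TBX20* were lower in both as well. *GATA4* was higher in both and *NKX2-5* overlapped. The share of all genes without overlap was not counted. With all 12 libraries edgeR called 0 of the 8 members, 0% of all genes passed, and 1567 genes and 2 members (*HEY2* and *GATA4*) had an unadjusted p under 0.05 (DESeq2 called 1 member). Without library 5, 2 of 8 passed, against 2.49% of all genes. *HEY2* fell by 1.34 ± 0.26 (edgeR adjusted p = 0.0176) and *IRX4* fell by 0.85 ± 0.17 (edgeR adjusted p = 0.0198). The 2 Pass-IWP2 libraries differed in *HEY2*, at 10.3 and 4.6 FPKM, and its log2 fold change was -0.90 without library 6 and -1.95 without library 5 of Day 16, neither past the threshold (edgeR adjusted p = 1 and 0.0937). *GATA4* was at 0.32 ± 0.10 and did not pass (edgeR adjusted p = 0.127). *NKX2-5* was at 0.03 ± 0.10, with a 95% interval from -0.18 to 0.23. On Day 12 the same comparison has no test, because library 5 makes up 1 of the 2 Pass-IWP2 values. Library 6 alone lay above both Pass-ctrl libraries in *IRX4*, *HEY2*, *NKX2-5*, *MEF2C*, *HAND1* and *HAND2*, between them in *GATA4*, and below both in *TBX20*.

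**Figure D2:**
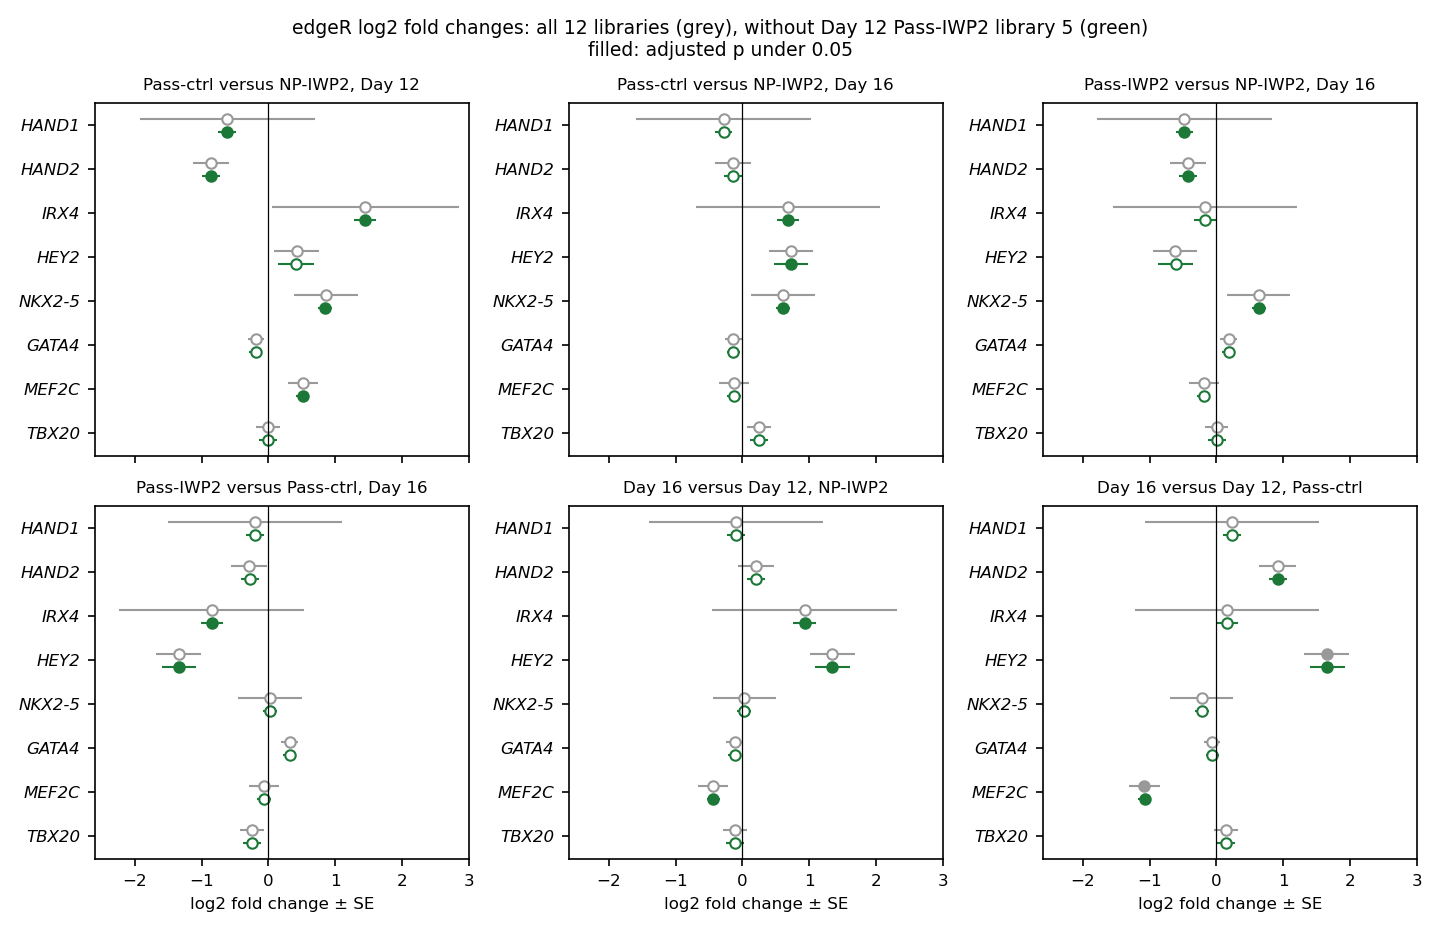
Log2 fold changes with SE from edgeR for the 8 genes in 6 comparisons, with all 12 libraries in grey and without Day 12 Pass-IWP2 library 5 in green; filled points have an adjusted p under 0.05. The 2 points of a gene lie at nearly the same fold change, and the grey bars of *HAND1* and *IRX4* are the longest, with an SE of about 1.3 to 1.4.

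From Day 12 to Day 16, *HEY2* was higher and *MEF2C* lower in both NP-IWP2 and Pass-ctrl. In static culture, 0 of 8 members passed with all 12 libraries in edgeR (1.98% of all genes passed), 1 had an unadjusted p under 0.05, and DESeq2 called 1. Without library 5, 3 of 8 passed, against 17.1% of all genes. *HEY2* rose by 1.35 ± 0.26 (edgeR adjusted p = 0.0044), *IRX4* rose by 0.93 ± 0.17 (edgeR adjusted p = 0.00259) and *MEF2C* fell by 0.44 ± 0.10 (edgeR adjusted p = 0.0104). *NKX2-5* was at 0.03 ± 0.10 and *HAND1* at -0.10 ± 0.13 on the log2 scale.

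In Pass-ctrl cells the same 2 genes were the only members called with all 12 libraries, 2 of 8 against 13.6% of all genes. *HEY2* rose by 1.65 ± 0.34 (edgeR adjusted p = 0.0147) and *MEF2C* fell by 1.08 ± 0.23 (edgeR adjusted p = 0.0165). Both calls were lost when Day 12 library 4 or either Day 16 Pass-ctrl library was left out, which leaves 1 library in that group, and the *MEF2C* call also without Day 12 library 3. The adjusted p was then 0.0776 to 0.133 for *HEY2* and 0.0739 to 0.134 for *MEF2C*. Without library 5 of Day 12 Pass-IWP2, *HAND2* passed in addition, higher by 0.92 ± 0.14 (edgeR adjusted p = 0.000302), so that 3 of 8 passed against 29.2% of all genes. *HAND1* and *IRX4* were at 0.24 and 0.16 with TMM and at -0.02 and -0.10 with total counts, and neither passed. In Pass-IWP2 the change with time has no test for the reason given above. From library 6 of Day 12 to libraries 5 and 6 of Day 16, *IRX4* went from 68.4 to 31.5 and 21.4 FPKM, *MEF2C* from 31.1 to 10.37 and 10.39, and *HEY2* from 10.01 to 10.3 and 4.6. *HEY2* thus had no common direction in these libraries, and its Day 12 value in library 5 was 7.73 FPKM.

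Whether the change with time differed between Pass-ctrl and static cells was tested as an interaction. With all 12 libraries edgeR called 0 of 8 members, none had an unadjusted p under 0.05, DESeq2 called 0, and 0.482% of all genes passed. Without library 5 it called 2 of 8, against 7.62% of all genes. *HAND2* rose more in Pass-ctrl than in NP-IWP2, by 0.72 ± 0.19 (edgeR adjusted p = 0.0373), and *MEF2C* fell more, with an interaction of -0.64 ± 0.14 (edgeR adjusted p = 0.0151). With all 12 libraries the adjusted p was 0.488 and 0.45. For *IRX4* the interaction without library 5 was -0.77 ± 0.24 and did not pass (edgeR adjusted p = 0.067). For *HEY2* it was 0.31 ± 0.37 and did not pass (edgeR adjusted p = 0.68, and 0.849 with all 12 libraries).

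Library scaling moved all genes together in some comparisons. When libraries were scaled by their totals, not by TMM, the median log2 fold change over all genes was -0.25 for Pass-ctrl and -0.31 for Pass-IWP2 against NP-IWP2 on Day 16, and -0.28 for Day 16 against Day 12 in Pass-ctrl. With TMM these medians were -0.02, -0.03 and -0.02. Every call given above kept its direction with total counts.

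The loss in Day 12 Pass-IWP2 library 5 was nearly complete for 2 of the 8 genes. *HAND1* had 7 reads there and 3089 in library 6, a 417-fold difference in CPM (counts scaled to the library's total) with a 95% counting interval of 202 to 1039. *IRX4* had 2 reads and 3362, a 1590-fold difference with an interval of 440 to 13131. *NKX2-5* was 3.60-fold lower than in library 6 (95% counting interval 3.42 to 3.80) and *MEF2C* 1.55-fold lower (1.49 to 1.62). In contrast, *HAND2* was 2.29 times (2.18 to 2.41) and *GATA4* 1.32 times (1.27 to 1.36) its level in library 6. *TBX20* and *HEY2*, at 0.898 and 0.772 times, lay within the FPKM range of the other libraries. The intervals cover counting error only, and for *HAND1* and *IRX4*, whose low reads chose the members, they are no test. These ratios and places depend on scaling, since the TMM factor was 1.22 in library 5 and 1.04 in library 6. With TMM, *TBX20* was lowest in library 5, at 70.6 FPKM against 91.3 or more elsewhere. *GATA4* was then 93.0 and 82.6 FPKM in libraries 5 and 6, and *MEF2C* 16.5 and 29.9. The 2 libraries had 15634044 and 16533768 counted reads in all.

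Relatives of the 8 genes split in the same way in that library. Of the T-box genes, *TBX18*, an epicardial and sinus factor, had 14350 reads against 11 in library 6, and *TBX5*, which marks atrial and left ventricular progenitors, was highest of 12 at 64.2 FPKM. *GATA5* and *GATA6*, at 34.1 and 104 FPKM, were also highest of 12, as was *HEY1*, the atrial relative of *HEY2*, at 40.5 FPKM. On the other side *IRX1*, *IRX2*, *IRX3* and *IRX5*, homeobox relatives of *IRX4*, had 0.0455 to 0.109 times the level of library 6, which was the highest of 12 for all 4. *IRX1*, at 0.25 FPKM, was the lowest of 12 in library 5, while *IRX2*, *IRX3* and *IRX5*, at 1.94, 1.66 and 0.65 FPKM, lay within the range of the other 11 libraries. *IRX6* had 2 reads in each library. The T-box genes *TBX2* and *TBX3* had 0.372 and 0.365 times the level of library 6, within the range of the other libraries. *NKX2-6* and *MEF2A*, at 10.8 and 39.9 FPKM, were the lowest of 12. *NR2F1*, an atrial regulator, stood at 55.6 FPKM against at most 0.97 in any other library. The atrial genes *NR2F2*, *KCNA5* and *KCNJ3* were highest of 12 as well, at 46.4, 9.98 and 8.25 FPKM, as was *RYR2* at 47.1 FPKM. Sarcomere genes of either chamber were among the low ones, but *MYH6* and *TNNT2*, at 737 and 78.8 FPKM, lay within the range of the other libraries. *MYL2* and *MYH7*, of ventricular muscle, were at 0.14 and 7.06 FPKM, the lowest of 12, and so were the atrial *MYL7* (1113) and *MYL4* (146) and the general *ACTC1*, *TNNC1*, *TNNI1*, *ACTN2*, *MYBPC3* and *TTN*. The list of 11 epicardial genes summed to 282 FPKM in library 5 and 118 in library 6, the 8 fibroblast genes to 685 and 35.8. *TBX18* and *SEMA3D*, at 106 and 57.1 FPKM, made up much of the first sum, while *KRT8*, *KRT19* and *TJP1* were lower than in library 6. *WT1*, *TCF21* and *BNC1* were 6.36, 21.3 and 5.91 FPKM, against 0.01, 0.02 and 0.48 in library 6, and *UPK3B* was 0.10 and 0.07. The collagens *COL1A1* and *COL3A1*, at 176 and 457 FPKM, made up most of the second sum. *PDGFRA* was 37.7 FPKM against 6.6 in library 6, while *LUM*, *DCN* and *POSTN* were at 0.55, 0.26 and 0.7 FPKM. *TNNT2* was 78.8 and 119 FPKM. These genes were chosen after their values were seen, and the part of other cell types in the loss was not tested.

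**Figure D3:**
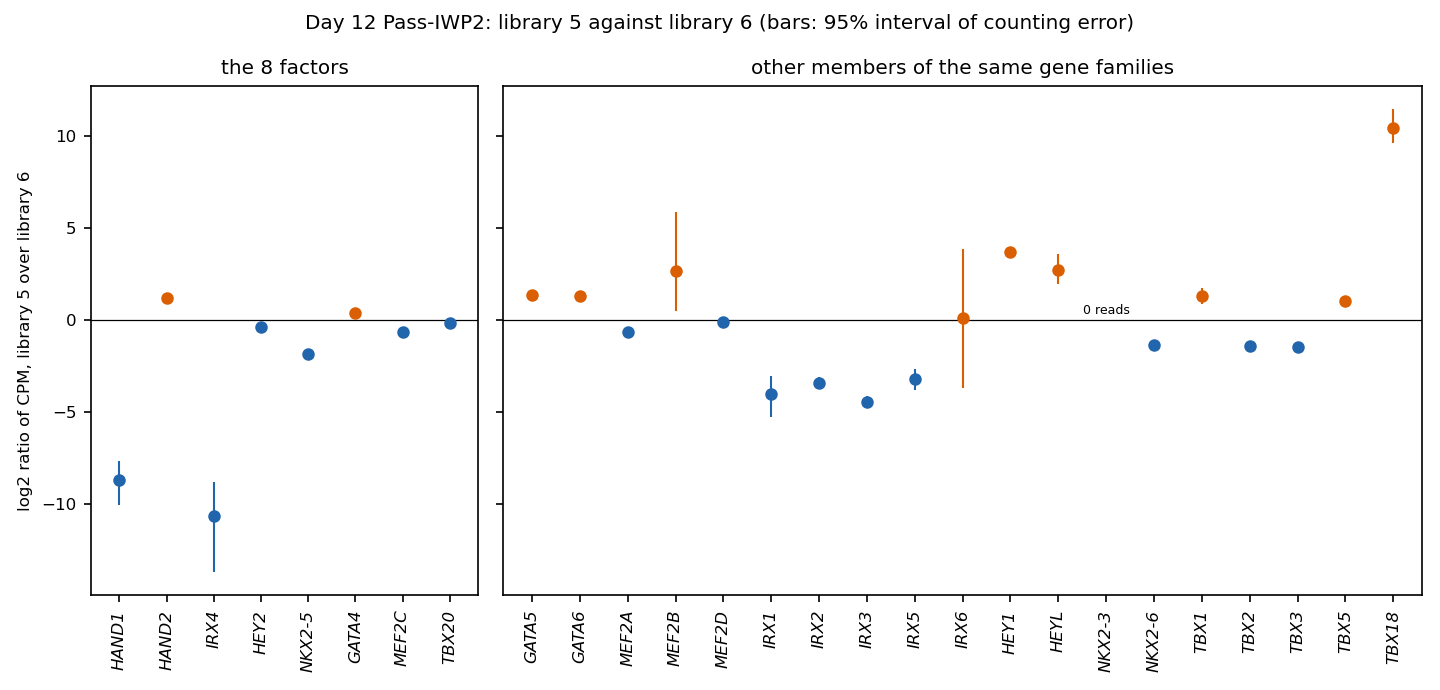
Log2 ratio of CPM in library 5 over library 6 of Day 12 Pass-IWP2 for the 8 factors (left) and for 19 relatives from their gene families (right), with 95% intervals of counting error; blue is lower and orange higher in library 5, and *NKX2-3* has no reads in library 5 and no ratio. *HAND1* and *IRX4* are the lowest points, and *TBX18* is the highest.

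The pattern of *HAND1* and *IRX4* across libraries rests on this one library. Over 12 libraries, Pearson's r of log2 CPM between them was 0.96, and *IRX4* was the gene second most like *HAND1*, after *CALML3-AS1* (r 0.97). *PTPRJ* (r 0.95) and *GYG2* (r 0.94) were also among the 5 most similar. For *IRX4* the 4 most similar were *PTPRJ*, *KCNQ5*, *IRX4-AS1* and *CALML3-AS1*, with r of 0.98 to 0.99. Over the 11 other libraries r between *HAND1* and *IRX4* was -0.44, and the 5 genes most like *HAND1* were *KRT19*, *KCNJ3*, *WIPF3*, *LHX8* and *AXIN1* (r 0.92 to 0.97). For *IRX4* they became *PRDM16*, *PRDM16-DT*, *FBN2*, *C5orf38* and *RNF19B* (r 0.95 to 0.99). *PRDM16*, a regulator of ventricular muscle, ranged from 0.92 to 5.97 FPKM in these 11 libraries. In the passaged libraries other than library 5, those with more *HAND1* mostly had more *IRX4*, and the 4 static libraries lay apart at high *HAND1*. These r are descriptions over libraries that share groups and days.

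**Figure D4:**
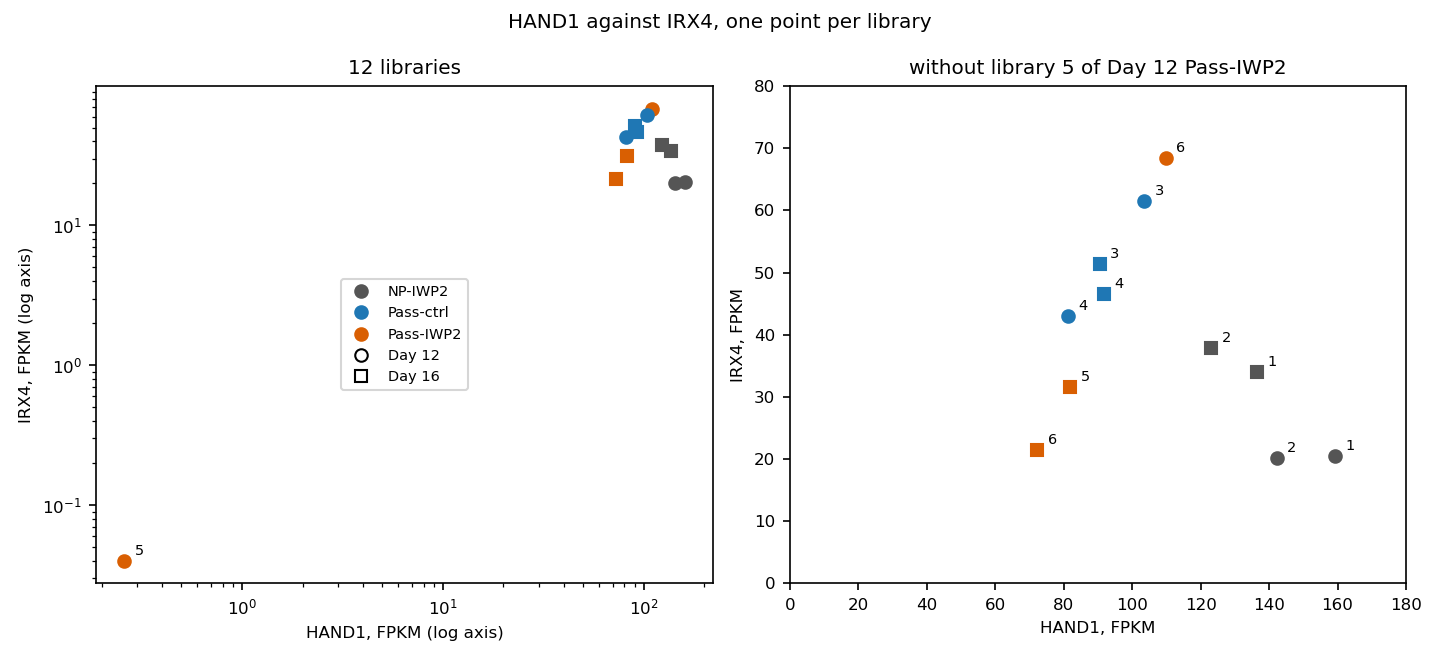
*HAND1* against *IRX4* in FPKM, one point per library, on log axes for 12 libraries (left) and on linear axes without library 5 of Day 12 Pass-IWP2 (right); colors are groups, circles Day 12 and squares Day 16. On the left library 5 is far from the rest at 0.26 and 0.04 FPKM, and on the right the static libraries lie apart from the passaged ones.

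Other factors of these families, their partners and their targets were compared on the same scale, with fold changes from all 12 libraries. Among 19 relatives, Day 16 Pass-ctrl against NP-IWP2 gave 0 higher and 4 lower in edgeR with all 12 libraries, where 15.3% of all genes passed, and Pass-IWP2 gave 1 higher and 5 lower, where 17.1% passed (without library 5 3 and 5, then 2 and 9, where 32.4% and 34.8% passed). The median log2 fold change of these 19 genes was -0.08 and -0.97, beside -0.02 and -0.03 for all genes. Those lower in both passaged groups were *TBX18*, *HEYL* and *GATA5*. *TBX18* was 28.7 and 44.8 FPKM in NP-IWP2 and at most 0.05 in the passaged libraries of Day 16. *GATA5* was at -1.32 (edgeR adjusted p = 0.0184) and -1.20 (edgeR adjusted p = 0.0245) in Pass-ctrl and Pass-IWP2, and *HEYL*, a Notch target, at -4.05 (edgeR adjusted p = 0.00363) and -2.88 (edgeR adjusted p = 0.00994). Without library 5, *NKX2-3* and *HEY1* were also lower and *NKX2-6* and *MEF2A* higher in both.

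Of 19 partners, 2 were higher and 3 lower in Pass-ctrl, and 3 and 3 in Pass-IWP2, against NP-IWP2 on Day 16 (15.3% and 17.1% of all genes). Without library 5 these were 5 and 7, then 6 and 5 (32.4% and 34.8% of all genes). The medians of these 19 genes were 0.06 and 0.00 on the log2 scale. *HOPX*, a homeodomain protein without DNA binding that acts in cardiomyocyte development, was 0.73 and 1.30 FPKM in NP-IWP2, 11.9 and 13.6 in Pass-ctrl, and 15.8 and 16.9 in Pass-IWP2. Its log2 fold changes were 3.85 (edgeR adjusted p = 0.000308) and 4.27 (edgeR adjusted p = 0.000244). *MYOCD*, a coactivator of SRF, was higher by 0.65 (edgeR adjusted p = 0.0276) and 0.77 (edgeR adjusted p = 0.0137). *NFATC1* and *KLF13* were lower in both, by log2 fold changes of -1.03 and -0.61 in Pass-ctrl and -1.27 and -0.94 in Pass-IWP2. Without library 5, *SMYD1* and *TEAD1* were also higher and *ISL1* and *ZFPM2* lower in both.

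Among 20 genes known as targets of these factors, 5 were higher and 1 lower in Pass-ctrl and 5 higher and 3 lower in Pass-IWP2, beside 15.3% and 17.1% of all genes. Without library 5 the counts were 13 and 2, then 16 and 3, beside 32.4% and 34.8%. Their median log2 fold changes were 0.90 and 1.13. *CASQ2*, which binds calcium in the sarcoplasmic reticulum, was higher by 2.80 (edgeR adjusted p = 0.00214) and 3.95 (edgeR adjusted p = 0.000477). *PLN*, an inhibitor of the calcium pump, was higher by 2.86 (edgeR adjusted p = 0.0327) and 2.45 (edgeR adjusted p = 0.0489), and the pump gene *ATP2A2* by 0.68 (edgeR adjusted p = 0.018) and 0.62 (edgeR adjusted p = 0.0238). *MYH6*, the atrial and early myosin heavy chain, was lower, at -2.02 (edgeR adjusted p = 0.0196) and -1.56 (edgeR adjusted p = 0.0447). Without library 5, *CSRP3*, *NPPA*, *MYH7* and *TNNC1* were also higher and *GJA1* lower among the 8 largest changes. The medians of the 8 factors in these 2 comparisons were 0.06 and -0.18.

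A list of 9 ventricular genes, which holds *HAND1*, *IRX4* and *HEY2*, did not move as one. Against NP-IWP2 on Day 16, 2 were higher and 0 lower in Pass-ctrl and 1 higher and 0 lower in Pass-IWP2 (15.3% and 17.1% of all genes), and without library 5 7 and 1, then 3 and 1 (32.4% and 34.8%). Its summed level was 894 to 1349 FPKM in Day 16 NP-IWP2, 4406 to 5106 in Pass-ctrl and 4116 to 4479 in Pass-IWP2, while on Day 12 it was 584 to 973 outside library 5 and 151 in it. *MYH7* was its largest part in each Day 16 library, at 695 and 351 FPKM in NP-IWP2, 2613 and 2340 in Pass-ctrl, and 2637 and 2318 in Pass-IWP2. *MYL2*, the ventricular regulatory light chain, was at 38.7 and 4.52, 1662 and 1360, and 1147 and 1121 FPKM in the 3 groups of Day 16. On Day 12 *MYL2* was at most 4.27 FPKM, in the library with the most *IRX4* (68.4 FPKM).

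Genes next to the members bear on what their counts hold. *IRX4-AS1* lies within *IRX4* on the other strand (chr5:1883315-1884758) and had 0 reads in library 5, which allows up to 3 counts or 0.192 CPM, and 168 in library 6. *HAND2-AS1* overlaps *HAND2* by 2960 bases on the opposite strand and had 807 to 2637 reads per library. The strand setting of the counting is not given in the sources used here. How reads were counted in the stretches that *HAND2*, *IRX4*, *MEF2C* and *HEY2* share with their antisense partners is therefore not known. *TBX20* (ENSG00000164532, chr7:35202430-35254100) is followed on the same strand after 58 bases by the unnamed long noncoding gene ENSG00000288947 (chr7:35200166-35202371). This neighbor had 1.55 to 1.85 times the reads of *TBX20* in every library, from 3805 to 7373, and whether reads of one transcript were split between the 2 genes was not tested.

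The positions of the members, on GRCh38 as the table gives them, are as follows. *HAND1* (ENSG00000113196) is at chr5:154474972-154478227 and *HAND2* (ENSG00000164107) at chr4:173524969-173530229, both on the minus strand. *IRX4* (ENSG00000113430) is at chr5:1877413-1887236, minus strand, and *HEY2* (ENSG00000135547) at chr6:125747664-125761269, plus strand. *NKX2-5* (ENSG00000183072) is at chr5:173232109-173235311, minus strand, *GATA4* (ENSG00000136574) at chr8:11676959-11760002, plus strand, and *MEF2C* (ENSG00000081189) at chr5:88717117-88904257, minus strand. All 8 have the same start and end in GENCODE release 44, and 4 of them lie on chromosome 5.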

How the data were processed

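RNA-seq of H1 cells was deposited as 1 table with 12 libraries in 6 groups of 2. Per the labels, reads were trimmed with cutadapt 1.9.1, aligned to hg38 with HISAT2 2.0.1 and counted with HTSeq 0.6.1, and DESeq2 is named without a version. The deposited counts are whole reads per gene without normalization. The authors' FPKM equal these counts divided by exon length and the library's total, with a largest rounding difference of 0.005. The annotation release and strand setting are not given in the sources used here.

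Counts were tested with edgeR 4.0.16 in R 4.3.3 (TMM, filterByExpr, quasi-likelihood test, 1 model of 6 groups) and called at a Benjamini-Hochberg adjusted p under 0.05 over all genes tested. Alternatives were DESeq2 1.42.0, total counts, no filter, limma 3.58.1 on log2(FPKM + 1) or log2(FPKM + 0.1) for genes with a mean FPKM of at least 1, a model of only the groups compared, a replicate block, and each library left out. Comparisons with Day 12 Pass-IWP2 were given as values without a test. The tests were run on simulated data first. Totals of counts were 14885589 to 19176239, so 3 counts were 0.156 to 0.202 CPM, and no 2 of the 66 pairs of libraries agreed in more than 1.72% of their counts.

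The 8 members and all gene lists were chosen with earlier results of these data known. From lists of relatives, partners and targets, genes called in the same direction in both passaged groups against NP-IWP2 on Day 16 were named, at most 8 per list by mean size of change. For *HAND1* and *IRX4* the 5 genes most correlated in log2 CPM (prior count 2) were named, except for a result that is not reported here. Other genes were chosen after their values were seen. Figures were drawn with Python 3.11.15, pandas 2.3.3 and matplotlib 3.10.9.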

Additional observations from a re-analysis of the deposited data

Results flagged for a closer look

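The change from Day 12 to Day 16 differed between Pass-ctrl and NP-IWP2 for 2 of the 8 factors when Day 12 Pass-IWP2 library 5 was left out of the model. In that fit, which is post hoc, 7.62% of all genes passed. *HAND2* had an interaction of 0.72 on the log2 scale: it went from a mean of 30.6 to 48.4 FPKM in Pass-ctrl and from 59.0 to 62.4 in NP-IWP2. *MEF2C* had an interaction of -0.64, with means of 28.4 and 11.2 FPKM in Pass-ctrl and 21.0 and 14.4 in NP-IWP2. With all 12 libraries neither passed (edgeR adjusted p = 0.488 for *HAND2* and 0.45 for *MEF2C*).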

How the results depend on the processing

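Of the 8 factors, those called among all genes tested depended on the estimate of spread more than on scaling. In the order Pass-ctrl against NP-IWP2 on Day 12 and on Day 16, Pass-IWP2 against NP-IWP2 and against Pass-ctrl on Day 16, Day 16 against Day 12 in NP-IWP2 and in Pass-ctrl, and the interaction, edgeR with all libraries called 0, 0, 0, 0, 0, 2 and 0 members. A model of only the groups compared called 5, 4, 2, 2 and 3 in the first 5 and 3 in the interaction, where it called 5361 of 17995, 6927 of 17285, 5127 of 17547, 253 of 16249, 5124 of 18119 and 2380 of 18871 genes. No filter called 4, 3, 2, 2 and 2 members in the first 5, and 3107, 4671, 4954, 645 and 2045 of 40332 genes. DESeq2 called 1 member each for Day 12 Pass-ctrl, for Pass-IWP2 against Pass-ctrl, and for time in NP-IWP2, with 1603 of 19126, 112 of 16479 and 1093 of 16101 genes. When each library was left out, the counts ranged from 0 to 5, 0 to 3, 0 to 3, 0 to 2, 0 to 3, 0 to 3 and 0 to 2. The upper end of each range was reached without Day 12 Pass-IWP2 library 5 and again without library 6, which leaves library 5 alone in its group and its spread out of the estimate. Over 386 alternative values of 21 fold changes of single members, 304 kept their side of the threshold, 75 passed where the 12-library fit did not, 7 lost the call and 0 changed direction. The numbers of the libraries did not pair them across days (correlation of deviations 0.08, -0.002 and -0.03 in the 3 treatments), and with a replicate block the counts for time in NP-IWP2, time in Pass-ctrl and the interaction were 0, 2 and 0. Depth limits only the 2 lost genes: 3 counts were at most 0.202 CPM, and the lowest level of any member outside library 5 was 4.6 FPKM (*HEY2*). The cause of library 5's difference was not tested.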
